A study of Mus musculus with 4 samples.

Results

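The matrix metalloproteinases (MMPs), the ADAMTS proteases, the ADAMTS-like proteins and the tissue inhibitors of metalloproteinases (TIMPs) were taken as every gene whose symbol carries the family name followed by its number in the deposited files. This gave 51 genes of 24319, made up of 23 MMP, 19 ADAMTS, 5 ADAMTSL and 4 TIMP genes. They were compared in aorta of C57BL/6 mice aged 3 weeks, in 2 libraries from GGPPS knockout (KO) mice and 2 from wild-type (WT) mice. GGPPS, encoded by Ggps1, makes geranylgeranyl diphosphate, the lipid attached to many small GTPases. Each library is labelled as holding male and female aorta, and the labels give neither how many animals were pooled nor which cells carried the deletion. Levels are FPKM (fragments per kilobase of transcript, scaled to mapped fragments of the library), a per-length unit, so that levels of different genes can be set side by side.

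MMPs are zinc-dependent enzymes that cut collagens, elastin and other matrix proteins, and some of them are held at the cell surface by a membrane anchor. ADAMTS enzymes are secreted relatives that cut proteoglycans such as versican, process procollagens or act on fibrillin microfibrils, and the ADAMTS-like proteins share their ancillary domains but have no protease domain. TIMPs bind the active site of many of these enzymes and block it, and not every TIMP blocks every enzyme. In the artery wall the balance of enzyme and inhibitor is known to bear on elastic fibre loss and on wall thickening.

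Ggps1 was at 1.18 and 1.07 FPKM in the KO libraries, against 8.96 and 10.6 FPKM in the WT libraries, in the direction of the labels. Deposited values summed to 610985 and 632091 FPKM in KO and to 515196 and 519762 FPKM in WT, and fragment depth is unknown. Markers of contractile smooth muscle summed to 4018 and 5297 FPKM in KO, against 15690 and 17590 FPKM in WT, with 9 of 9 called lower. Macrophage markers summed to 556.5 and 472 FPKM in KO, against 76.4 and 77.1 FPKM in WT, with 12 of 12 called higher, of which 4 passed the filter described next through the KO libraries alone. The shares over all genes tested were 30.5% lower and 35.2% higher. Fewer cells of a type and less RNA per cell cannot be told apart in these bulk libraries. Eln, the elastin gene, is listed at 0 in all 4 libraries, so a 0 is given here only as a listed value.

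Of the 51 genes, 32 reached at least 1 FPKM in at least 2 libraries and were tested with limma on log2(FPKM + 1), with adjustment over all 12295 genes tested and a threshold of 0.05. In KO, 20 of the 32 were lower (62.5%), against 30.5% of all genes tested, and 7 were higher (21.9%), against 35.2% of all genes. The remaining 5 were not called, so that 27 of 32 were called in either direction, against 65.7% of all genes. Falls of at least 1 on the log2 scale were found for 10 of the 32 (31.2%), against 7.62% of all genes, and rises of that size for 3 (9.38%), against 10.9%. The median log2 fold change was -0.71 for the 32 genes and 0.03 for all genes. Without KO library 1 the median was -0.75 for the 30 members then tested, as Mmp12 and Adamts7 no longer reached the filter. With column totals made equal, 4 of the 32 were higher and 22 lower. With equal totals the median of all genes was -0.21 and 35.8% of all calls were rises, against 53.5% with the deposited values. Mmp12 and Adamts7, counted as higher, passed the filter through the KO libraries alone. Mmp9 and Adamtsl1, counted as lower, passed it through the WT libraries alone.

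**Figure D1:**
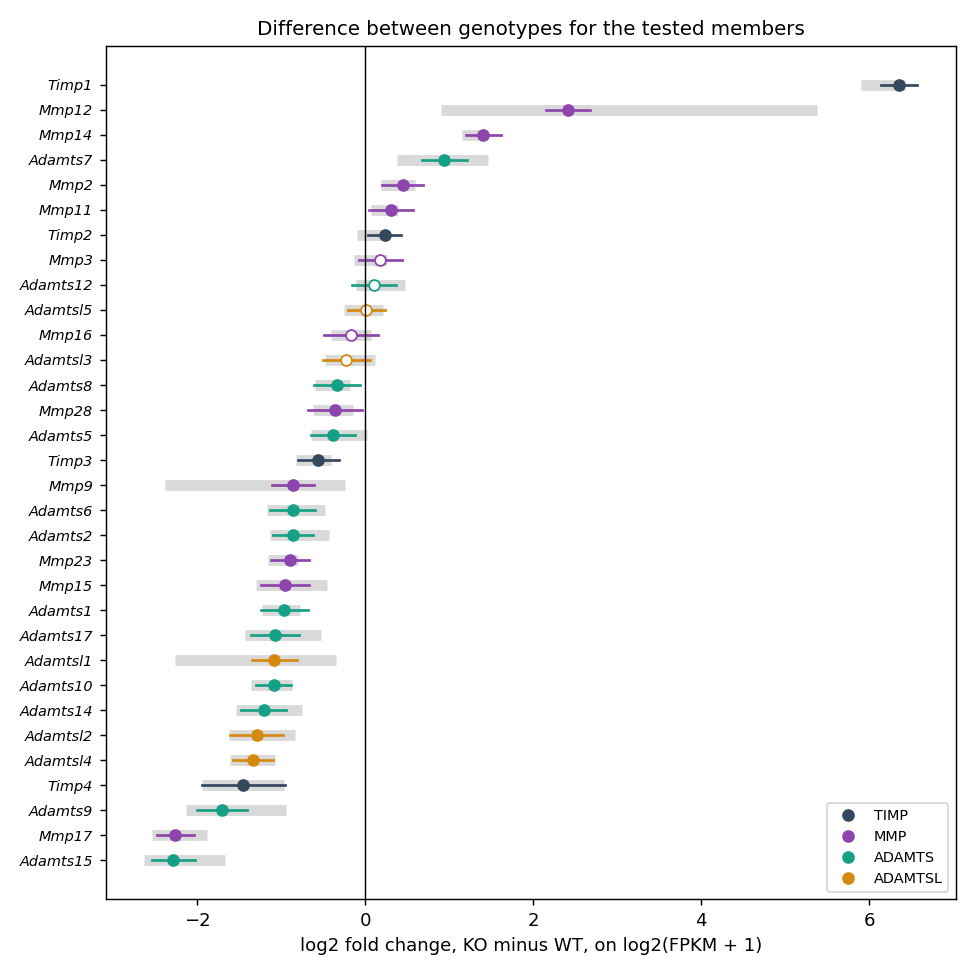
Log2 fold change (x axis, KO minus WT, on log2(FPKM + 1)) of each of the 32 tested genes (rows, ordered by value). Points are the limma estimates, coloured by family and filled where called and open where not, thin lines are 95% confidence intervals, and grey bars span the values under 13 other processing settings. Timp1 stands at 6.36, far from the rest, and the ADAMTS and ADAMTSL genes lie mostly left of 0.

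The plot of log2 fold changes shows a wide spread on either side of 0. The values ran between -2.28 for Adamts15 and 6.36 for Timp1. Among the 32, both KO libraries lay below both WT libraries for 21 genes and above them for 9, against 39.6% and 43.6% of all genes tested.

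The inhibitors came apart from one another in KO aorta. Timp1, an inhibitor that is induced by cytokines and growth factors in many cell types, was at 1906 and 1741 FPKM in the KO libraries, against 22.1 and 20.4 FPKM in the WT libraries. The gene lies on chromosome X (GRCm38, 20870166 to 20874735, plus strand, 6 exons in its longest transcript). Its level ranked 44th and 53rd of all genes in the KO libraries, against 3562nd and 3812th in the WT libraries. No other gene of the 51 moved as far (log2 fold change 6.36, SE 0.10, limma adjusted p = 2.91e-14, 5.91 to 6.42 over the alternatives).

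The promoter of Timp1 is shown because this gene carried the largest difference. In mouse and human, Timp1 is known to respond to AP-1, the dimer of FOS and JUN family proteins, through a variant site near its start, TGAGTAA. In RefSeq (GRCm38.p6) these letters, searched on both strands, stood at position 27 counted from 1 at the transcription start, inside the first exon. The capitals below mark them. They occurred in 2.68% of all 32851 promoter windows, each 250 bases before to 50 after a start, and in no other of the 36 family members that have a window.
Timp1 chrX:20869916-20870165, plus strand, before the start: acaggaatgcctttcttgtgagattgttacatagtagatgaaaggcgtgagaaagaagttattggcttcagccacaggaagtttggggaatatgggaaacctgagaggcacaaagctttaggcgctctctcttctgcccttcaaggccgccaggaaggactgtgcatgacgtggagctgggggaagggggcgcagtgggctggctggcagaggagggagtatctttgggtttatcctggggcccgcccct
Timp1 chrX:20870179-20870208, plus strand, in the first exon: agcggtgggtggaTGAGTAAtgcgtccagg

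Timp2, which besides blocking MMPs helps MMP14 to activate pro-MMP2, was at 296 and 289 FPKM in KO libraries, against 257 and 241 FPKM in WT libraries. The groups did not overlap, and the difference was small (log2 fold change 0.23, limma adjusted p = 0.0408). This call ended in several alternatives, and the direction turned when column totals were made equal (-0.03, limma adjusted p = 0.773) and with quantile normalization (-0.10, 0.276). It also ended without WT library 1 (0.28, limma adjusted p = 0.112), WT library 2 (0.18, 0.311) or KO library 1 (0.22, 0.068).

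Timp3, the inhibitor that stays bound to the matrix and also blocks several ADAMTS and ADAM enzymes, was at 115 and 143 FPKM in KO libraries, against 184 and 194 FPKM in WT libraries. The log2 fold change was -0.56, with an SE of 0.11 (limma adjusted p = 0.000605). Timp4, the inhibitor best known from heart and vessels, was at 3.16 and 7.20 FPKM in KO libraries, against 13.3 and 16.8 FPKM in WT libraries. The KO libraries differed more from each other than the WT libraries did, and both stayed below WT. The log2 fold change of Timp4 was -1.45, with an SE of 0.23 (limma adjusted p = 8.7e-05), and -0.96 without KO library 1, and its call ended with robust estimation (limma adjusted p = 0.0903).

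**Figure D2:**
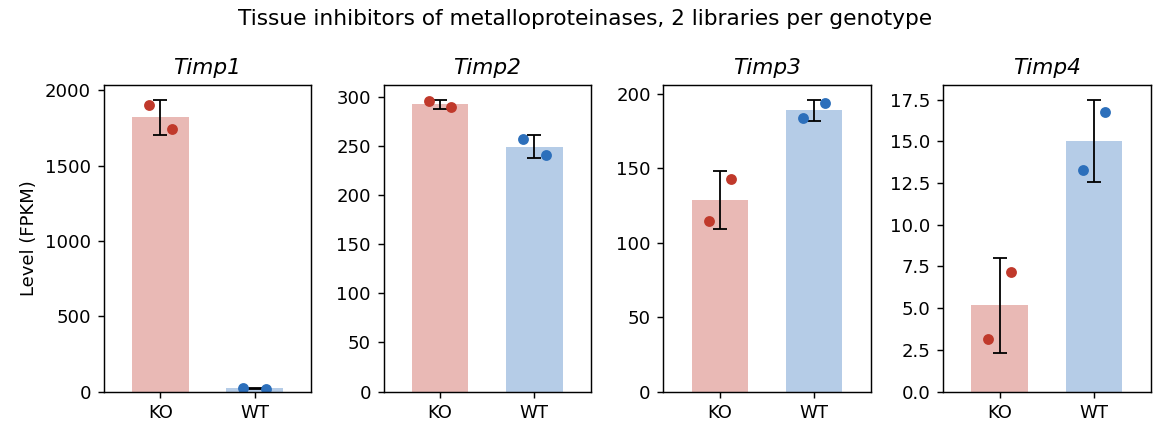
Level (y axis, FPKM, each panel on its own scale from 0) of the 4 TIMP genes in KO and WT aorta. Points are single libraries, bars are means and error bars are SD (n = 2). Timp1 averages 1823 FPKM in KO and 21.3 FPKM in WT, Timp2 is slightly higher in KO, and Timp3 and Timp4 are lower in KO.

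The panels of TIMP levels show that the order of the inhibitors changed. In both KO libraries the order from high to low was Timp1, Timp2, Timp3 and Timp4. In both WT libraries it was Timp2, Timp3, Timp1 and Timp4. No neighbours in these orders overlapped within a genotype. Timp1 made up 82.2% and 79.9% of the summed TIMP level in KO libraries, against 4.65% and 4.32% in WT libraries. Timp1, Timp3 and Timp4 each lie inside a synapsin gene on the opposite strand, and the strand setting of the counting is not stated in the labels. Their hosts were low. Syn1 was at 1.04 and 0.92 FPKM in KO libraries, against 1.25 and 1.04 FPKM in WT libraries, and shares no exon bases with Timp1. Syn3, which shares 1733 exon bases with Timp3, was at 0.13 and 0.20 FPKM in KO, against 0.43 and 0.45 FPKM in WT. It was too low to be tested, and both KO values lay below both WT values, as for Timp3. Syn2, which shares 90 exon bases with Timp4, was at 0.54 and 0.83 FPKM in KO, against 2.67 and 2.82 FPKM in WT, and was lower in KO as Timp4 was.

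Among the gelatinases, which cut denatured collagen and basement membrane, the pair took opposite directions. Mmp2, gelatinase A, was at 122 and 148 FPKM in KO libraries, against 93.6 and 103 FPKM in WT libraries (log2 fold change 0.45, SE 0.11, limma adjusted p = 0.00313). The Mmp2 call ended when column totals were made equal (0.19, limma adjusted p = 0.128). Mmp9, gelatinase B, was at 0.10 and 0.14 FPKM in KO libraries, against 1.01 and 1.03 FPKM in WT libraries, so that it was 8.80-fold lower by the ratio of means at a very low level. On the log2(FPKM + 1) scale the difference was -0.86, with an SE of 0.12 (limma adjusted p = 2.32e-05), and it was -0.24 with a pseudocount of 5 and -2.38 with 0.1. Mmp9 passed the filter through the WT libraries alone. Neutrophils are a known source of Mmp9, and their markers stayed near 0, at a sum of 1.55 and 2.34 FPKM in KO and 1.08 and 0.43 FPKM in WT, with Elane and Retnlg listed at 0 in all 4 libraries. S100a8, the only neutrophil marker tested, passed the filter through the KO libraries alone. It was at 1.08 and 1.65 FPKM in KO, against 0.92 and 0 FPKM in WT. That rise was called (log2 fold change 0.76, limma adjusted p = 0.00956). The part of any cell type in the Mmp9 result was not tested.

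Among the membrane-type MMPs, of which 4 of 6 were tested, 1 rose and 2 fell. Over all genes tested, 35.2% were higher and 30.5% lower. Mmp14, the transmembrane enzyme that activates pro-MMP2 and cuts fibrillar collagen (chromosome 14, 54431612 to 54445364, plus strand), was at 268 and 254 FPKM in KO libraries, against 100.5 and 95.3 FPKM in WT libraries. It was 2.67-fold higher by the ratio of means (log2 fold change 1.41, SE 0.09, limma adjusted p = 2.54e-08). Mmp17, which is attached by a lipid anchor rather than a transmembrane segment (chromosome 5, 129584169 to 129611099, plus strand), was at 19.3 and 19.5 FPKM in KO libraries, against 97.1 and 95.9 FPKM in WT libraries. It was 4.97-fold lower (log2 fold change -2.26, SE 0.10, limma adjusted p = 5.16e-10). The pair stood at near equal levels in WT and far apart in KO, with a ratio of Mmp14 to Mmp17 of 13.9 and 13.0 in KO libraries, against 1.03 and 0.99 in WT libraries.

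The transmembrane enzyme gene Mmp15 was at 1.85 and 1.40 FPKM in KO libraries, against 4.32 and 3.84 FPKM in WT libraries. Its log2 fold change was -0.96 (limma adjusted p = 2.55e-05), and -0.60 after trends with transcript length and GC content were taken out. Mmp16, a relative of Mmp15, was at 1.64 and 2.63 FPKM in KO, against 2.50 and 2.45 FPKM in WT. Its groups overlapped and it was not called (95% interval of the log2 difference -0.49 to 0.16). With equal column totals it was called lower (-0.405, limma adjusted p = 0.0488). The Mmp16 value also turned on the KO library kept, at -0.395 without KO library 2 and 0.0652 without KO library 1. The membrane-type genes Mmp24 and Mmp25 were not tested and stayed at or below 0.44 FPKM.

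**Figure D3:**
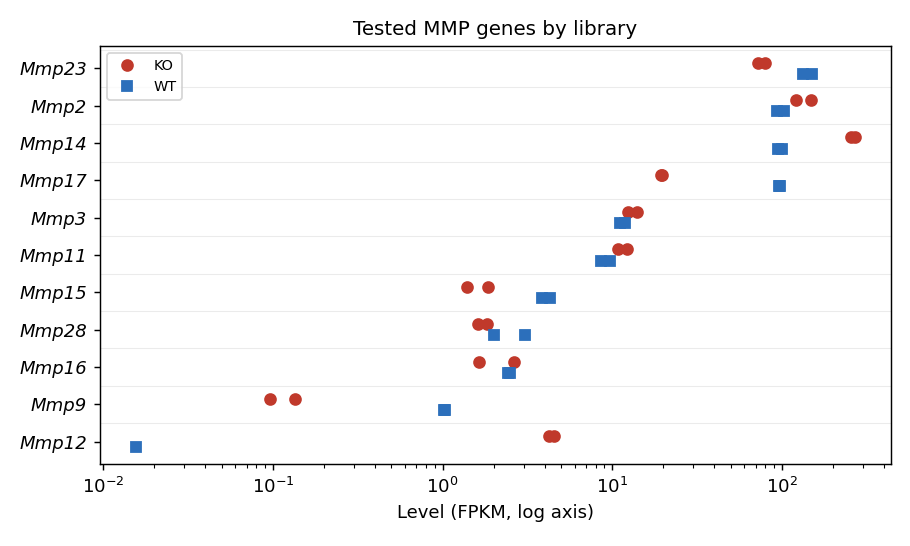
Level (x axis, FPKM, log axis) of the 11 tested MMP genes (rows, ordered by WT mean) in each KO library (circles) and WT library (squares). Mmp14 and Mmp12 lie to the right in KO and Mmp17, Mmp9, Mmp15 and Mmp23 to the left, and 1 WT library of Mmp12 is at 0 and cannot be drawn.

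Mmp12, the elastin-cutting enzyme best known from macrophages, was at 4.51 and 4.26 FPKM in KO libraries, against 0 and 0.016 FPKM in WT libraries. It rose by 2.42 on the log2(FPKM + 1) scale, with an SE of 0.12 (limma adjusted p = 1.42e-09). The size depends on the pseudocount, with 0.91 at a pseudocount of 5 and 5.38 at 0.1. Macrophage markers were higher in the same libraries. Of the 12 called, 8 reached 1 FPKM in WT, and Adgre1, Itgam, Fcgr1 and Msr1 passed the filter through the KO libraries alone. Among them, Cd68 was at 26.5 and 25.3 FPKM in KO, against 1.87 and 1.164 FPKM in WT, and Adgre1 at 6.64 and 5.79 FPKM in KO, against 0.70 and 0.86 FPKM in WT. Their part in the Mmp12 result was not tested. Mmp1b, which overlaps Mmp12 on the opposite strand by 157 exon bases, is listed at 0 in all 4 libraries.

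Of the stromelysins, Mmp3 was at 13.9 and 12.5 FPKM in KO libraries, against 11.8 and 11.2 FPKM in WT libraries, and was not called (log2 fold change 0.18, 95% interval -0.07 to 0.44). Mmp11, which furin activates inside the cell, was at 12.2 and 10.9 FPKM in KO, against 9.70 and 8.59 FPKM in WT. This rise (log2 fold change 0.31, limma adjusted p = 0.0408) was lost in 7 of 13 alternatives, among them without WT library 1 (0.39, limma adjusted p = 0.0888), WT library 2 (0.23, 0.338) or KO library 1 (0.23, 0.119). Mmp11 shares 155 exon bases with Chchd10 on the opposite strand, which was at 48.7 and 38.9 FPKM in KO libraries, against 1.91 and 1.47 FPKM in WT libraries. Whether its reads add to the Mmp11 values was not tested.

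Mmp23, an unusual MMP that has no hemopexin domain, had the highest level of the family in WT libraries. It was at 72.0 and 79.7 FPKM in KO libraries, against 149.8 and 133 FPKM in WT libraries, with a log2 fold change of -0.89 and an SE of 0.10 (limma adjusted p = 5.36e-06). Mmp28, epilysin, was at 1.83 and 1.62 FPKM in KO, against 3.06 and 2.02 FPKM in WT. That fall (log2 fold change -0.36, limma adjusted p = 0.0454) ended in 6 of 12 alternatives that tested it, among them without WT library 1 (-0.15, limma adjusted p = 0.521), KO library 1 (-0.42, 0.0993) or KO library 2 (-0.31, 0.199). Mmp28 shares 466 exon bases on the opposite strand with 1700020L24Rik, which was also lower in KO, at 2.47 and 3.15 FPKM, against 5.70 and 3.57 FPKM in WT. Its part in the Mmp28 values was not tested.

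The interstitial collagenases and several other MMPs were at or near 0. In all, 19 of the 51 genes were not tested, of which Adamts18, Mmp1a, Mmp1b, Mmp7, Mmp8 and Mmp20 are listed at 0 in all 4 libraries. The other 13 were above 0 in at least 1 library, and the highest value among them was 1.002 FPKM for Mmp19 in KO library 2. With no filter on low values, 3 of these 13 were called. Mmp13, collagenase 3, was at 0.26 and 0.32 FPKM in KO libraries, against 0.017 and 0 FPKM in WT libraries (limma adjusted p = 0.00201 with no filter). Mmp24 was at 0.44 and 0.29 FPKM in KO, against 0.023 and 0.0087 FPKM in WT (0.00368). Mmp27 was at 0.048 and 0.15 FPKM in KO, against 0.64 and 0.58 FPKM in WT (0.00153). These levels are low and the depth behind them is unknown. Mmp24 shares 637 exon bases on the opposite strand with BC029722, at 30.9 and 24.7 FPKM in KO, against 21.6 and 21.8 FPKM in WT. Whether reads of BC029722 add to the Mmp24 values was not tested. Mmp10, Mmp19, Mmp21, Mmp25, Adamts3, Adamts4, Adamts13, Adamts16, Adamts19 and Adamts20 were not called with no filter.

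A row of 10 MMP genes spans 427 kilobases of chromosome 9 (GRCm38, 7272514 to 7699585). In order they are Mmp13, Mmp12, Mmp1b, Mmp3, Mmp1a, Mmp10, Mmp8, Mmp27, Mmp20 and Mmp7. Mmp12 alone among them was called with the main filter, Mmp3 was the only other one tested, and both neighbours of Mmp3, Mmp1b and Mmp1a, are listed at 0. The promoters are shown because these neighbours differ in level yet share sequence features. The AP-1 letters TGANTCA, on both strands, occurred in 8 of the 10 promoters and the TATA box letters TATAAA, on both strands, in 9. Those 8 are among the 9. The AP-1 letters occurred in none of the 26 other family members with a window, and in 7.81% of all windows, while the TATA box letters occurred in 13.6%. The lines below give 100 bases before to 30 after the start (GRCm38.p6, plus strand), with both motifs in capitals. Mmp14, which rose and lies elsewhere, has neither in its window. Mmp12 has a second, upstream start in RefSeq that also has neither.
Mmp12 chr9:7347274-7347403: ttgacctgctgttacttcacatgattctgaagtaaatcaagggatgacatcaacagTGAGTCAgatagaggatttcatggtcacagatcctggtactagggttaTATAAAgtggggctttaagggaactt
Mmp3 chr9:7445722-7445851: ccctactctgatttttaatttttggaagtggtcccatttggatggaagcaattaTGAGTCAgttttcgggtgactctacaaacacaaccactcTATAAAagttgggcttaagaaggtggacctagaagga
Mmp10 chr9:7502242-7502371: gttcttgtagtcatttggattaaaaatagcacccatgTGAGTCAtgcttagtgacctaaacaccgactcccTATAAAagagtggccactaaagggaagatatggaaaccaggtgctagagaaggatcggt
Mmp13 chr9:7272414-7272543: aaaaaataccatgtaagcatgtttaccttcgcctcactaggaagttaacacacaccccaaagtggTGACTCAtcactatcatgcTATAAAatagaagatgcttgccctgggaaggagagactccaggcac
Mmp14 chr14:54431498-54431627: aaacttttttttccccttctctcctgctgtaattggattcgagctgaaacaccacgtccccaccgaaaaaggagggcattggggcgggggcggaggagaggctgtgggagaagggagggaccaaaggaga

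In these windows the AP-1 letters began at position -44 in Mmp12, -46 in Mmp3, -63 in Mmp10 and -35 in Mmp13, with TATAAA 3' of them in each. TATAAA began at position 5 in Mmp12, inside the annotated transcript, and at -7 in Mmp3, -29 in Mmp10 and -16 in Mmp13. Levels of these 4 genes were unlike each other. In KO libraries Mmp12 was at 4.51 and 4.26 FPKM and Mmp3 at 13.9 and 12.5 FPKM, while Mmp10 was at 0.065 and 0 FPKM and Mmp13 at 0.26 and 0.32 FPKM. A loose NF-kB pattern (3 G, then 5 unspecified bases, then 2 C, on both strands) occurred in 50.8% of all windows and in 26 of the 36 family members with a window. The ETS letters AGGAAG, on both strands, occurred in 35.4% of all windows and in 15 of the 36. A match in a window is a description and was not tied to binding.

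Of the 19 genes for secreted ADAMTS proteases, 12 were tested, of which 10 fell, 1 rose and 1 was not called (median log2 fold change -0.91), beside 30.5% lower and 35.2% higher over all genes tested. The enzymes known to cut proteoglycans fell in 5 of 5 tested cases. Adamts4 and Adamts20 of this group were too low to be tested. Adamts4 was at 0.66 and 0.84 FPKM in KO, against 0.58 and 0.38 FPKM in WT. Adamts20 was at 0.065 and 0.018 FPKM in KO, against 0.091 and 0.11 FPKM in WT. Adamts15 (chromosome 9, 30899155 to 30922452, minus strand), which had the lowest log2 fold change of the 32 tested genes with the reported settings, was at 4.16 and 4.22 FPKM in KO libraries, against 22.8 and 25.7 FPKM in WT libraries. It was 5.79-fold lower (log2 fold change -2.28, SE 0.12, limma adjusted p = 2.26e-09). Its neighbour Adamts8, 20110 bases away on the opposite strand, was at 15.99 and 17.8 FPKM in KO, against 24.02 and 19.3 FPKM in WT. That fall was smaller (log2 fold change -0.34, limma adjusted p = 0.0313) and ended without WT library 1 (-0.19, limma adjusted p = 0.433) or KO library 1 (-0.26, 0.125), with no filter (0.0858) and after the length and GC correction (-0.21, 0.112).

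Adamts9, an enzyme that cuts versican, was at 1.47 and 2.14 FPKM in KO libraries, against 8.11 and 8.06 FPKM in WT libraries. It was 4.48-fold lower (log2 fold change -1.71, SE 0.14, limma adjusted p = 1.58e-07). Adamts1, another versican-cutting enzyme, was at 29.6 and 38.5 FPKM in KO libraries, against 61.2 and 72.4 FPKM in WT libraries, and fell by 0.96 on the log2 scale (limma adjusted p = 2.27e-05). Adamts5, the aggrecan-cutting enzyme whose gene lies 53060 bases from Adamts1, was at 3.01 and 2.90 FPKM in KO, against 4.13 and 4.15 FPKM in WT. The Adamts5 fall (log2 fold change -0.38, limma adjusted p = 0.014) turned to 0.02 after the length and GC correction (limma adjusted p = 0.856), and ended without WT library 1 (-0.38, 0.0845) or WT library 2 (-0.38, 0.0911).

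**Figure D4:**
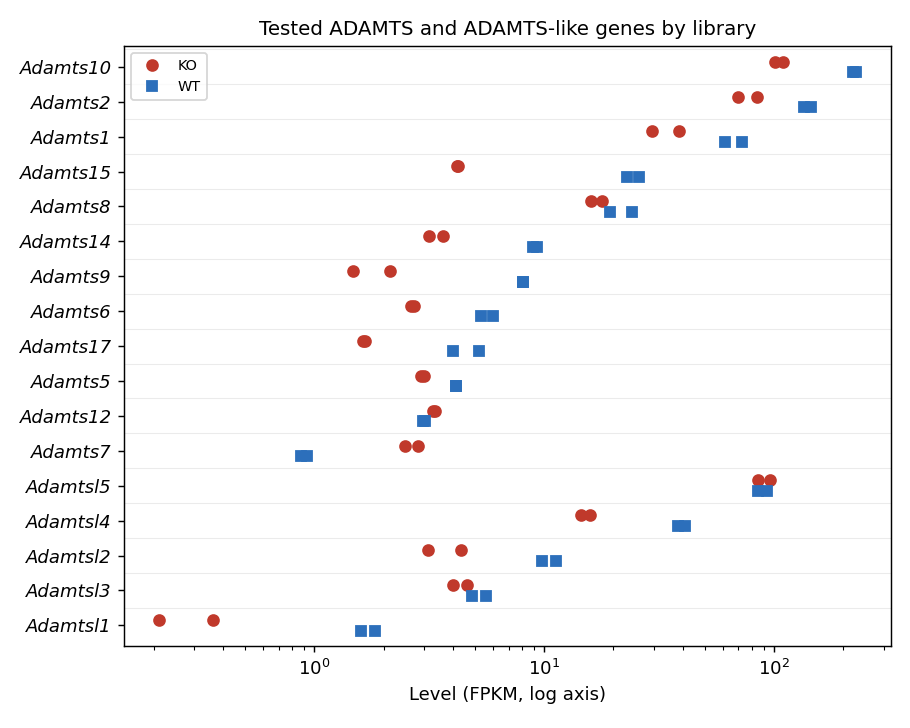
Level (x axis, FPKM, log axis) of the 12 tested ADAMTS genes and, below them, the 5 ADAMTSL genes (rows, ordered by WT mean) in each KO library (circles) and WT library (squares). KO libraries lie left of WT libraries for 14 of the 17 genes, and Adamts7 and Adamts12 are the 2 with KO to the right.

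Of the 3 procollagen N-propeptidases, which trim the amino end of fibrillar procollagens, 2 were tested and both fell. Over all genes tested, 30.5% were lower. Adamts2 was at 69.9 and 84.3 FPKM in KO libraries, against 145 and 135 FPKM in WT libraries, and fell by 0.86 on the log2 scale (limma adjusted p = 1.18e-05), and by 0.43 after the length and GC correction. Adamts14 was at 3.14 and 3.63 FPKM in KO libraries, against 9.33 and 8.91 FPKM in WT libraries, a 2.69-fold lower level (log2 fold change -1.21, limma adjusted p = 1.56e-06). Adamts3, the other member, was not tested at 0.29 and 0.25 FPKM in KO and 0.57 and 0.32 FPKM in WT.

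Adamts10, mutated in human Weill-Marchesani syndrome, had the highest level of the ADAMTS family in every library. It was at 109 and 101 FPKM in KO libraries, against 227 and 221 FPKM in WT libraries (log2 fold change -1.09, SE 0.10, limma adjusted p = 3.45e-07). Adamts17, linked to a related human syndrome, was at 1.67 and 1.63 FPKM in KO, against 5.18 and 4.01 FPKM in WT. Adamts6, the closest relative of Adamts10, was at 2.63 and 2.70 FPKM in KO, against 5.32 and 6.00 FPKM in WT. Their falls were 1.07 and 0.86 on the log2 scale, with limma adjusted p = 1.02e-05 for Adamts17 and 3.8e-05 for Adamts6.

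Adamts7 was the only tested gene of the ADAMTS family called higher. This enzyme, which cuts the cartilage and artery matrix protein COMP and is tied to human coronary disease by genetics, was at 2.84 and 2.48 FPKM in KO libraries, against 0.93 and 0.88 FPKM in WT libraries. It was 2.95-fold higher (log2 fold change 0.94, SE 0.12, limma adjusted p = 1.47e-05), with 0.38 at a pseudocount of 5 and 1.46 at 0.1. It shares 122 exon bases with Tbc1d2b on the opposite strand, which was lower in KO, at 8.57 and 9.58 FPKM, against 17.5 and 17.6 FPKM in WT. Its relative Adamts12 was at 3.27 and 3.34 FPKM in KO, against 2.98 and 3.02 FPKM in WT, and was not called (log2 fold change 0.11, 95% interval -0.15 to 0.37). That value was 0.48 after the length and GC correction, where it was called (limma adjusted p = 0.00271), and -0.10 with equal column totals (0.478). Comp itself was at 6.01 and 6.53 FPKM in KO libraries, against 8.66 and 7.98 FPKM in WT libraries. Adamts13, which cuts von Willebrand factor, was not tested, at 0.75 and 0.48 FPKM in KO and 0.65 and 0.52 FPKM in WT.

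Of the 5 ADAMTS-like genes, 3 fell and 2 were not called, beside 30.5% lower and 35.2% higher over all genes tested. Adamtsl4, a fibrillin-binding protein mutated in human lens displacement, was at 15.9 and 14.5 FPKM in KO libraries, against 41.0 and 38.3 FPKM in WT libraries (log2 fold change -1.33, limma adjusted p = 1.89e-07). Adamtsl2, mutated in human geleophysic dysplasia, was at 3.12 and 4.36 FPKM in KO, against 9.77 and 11.3 FPKM in WT (log2 fold change -1.29, limma adjusted p = 3.46e-06). Adamtsl1 was at 0.21 and 0.36 FPKM in KO, against 1.59 and 1.84 FPKM in WT, 6.00-fold lower at a low level. On the log2(FPKM + 1) scale Adamtsl1 fell by 1.08 (limma adjusted p = 4.9e-06), by 0.62 after the length and GC correction, and it passed the filter through the WT libraries alone. Its log2 fold change was -0.35 with a pseudocount of 5 and -2.26 with 0.1.

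Adamtsl5, the most abundant of the ADAMTS-like genes in every library, overlapped between genotypes, at 95.6 and 85.1 FPKM in KO, against 93.4 and 85.2 FPKM in WT. Its log2 difference of 0.02 had a 95% interval of -0.21 to 0.24. That difference was 0.218 after the length and GC correction, where it was called (limma adjusted p = 0.0419). With equal column totals it was -0.246 and not called (limma adjusted p = 0.0523). Adamtsl3 was at 3.99 and 4.63 FPKM in KO, against 4.83 and 5.56 FPKM in WT, and was not called (log2 fold change -0.22, 95% interval -0.50 to 0.06), but was with equal column totals (-0.48, limma adjusted p = 0.00606). Beside the falls of ADAMTS and ADAMTS-like genes, contractile smooth muscle markers had a median log2 fold change of -2.22. The median was -0.97 for fibroblast markers, with 7 of 8 lower and 1 higher. It was -1.45 for endothelial markers, with 7 of 7 tested lower, beside 30.5% of all genes tested. The endothelial marker Kdr was too low to be tested and overlapped between genotypes, at 0.17 and 0.23 FPKM in KO, against 0.13 and 0.20 FPKM in WT. The part of these cell types in the falls was not tested.

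The families differed when their levels were summed. The 4 TIMP genes came to 2319 and 2180 FPKM in KO libraries, against 476 and 472 FPKM in WT libraries, 4.75-fold higher. Without Timp1, the other TIMPs came to 414 and 439 FPKM in KO, against 454 and 451 FPKM in WT. The 23 MMP genes came to 519 and 537 FPKM in KO, against 475 and 458 FPKM in WT, a ratio of 1.13, which turned to 0.943 with equal column totals. The 19 ADAMTS genes came to 249 and 266 FPKM in KO, against 518 and 510 FPKM in WT, a ratio of 0.50. The 5 ADAMTSL genes came to 119 and 109 FPKM in KO, against 151 and 142 FPKM in WT. An exact permutation test of a single sum with 2 libraries in each genotype cannot give a smaller two-sided p than 0.33, and the sums were not tested.

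**Figure D5:**
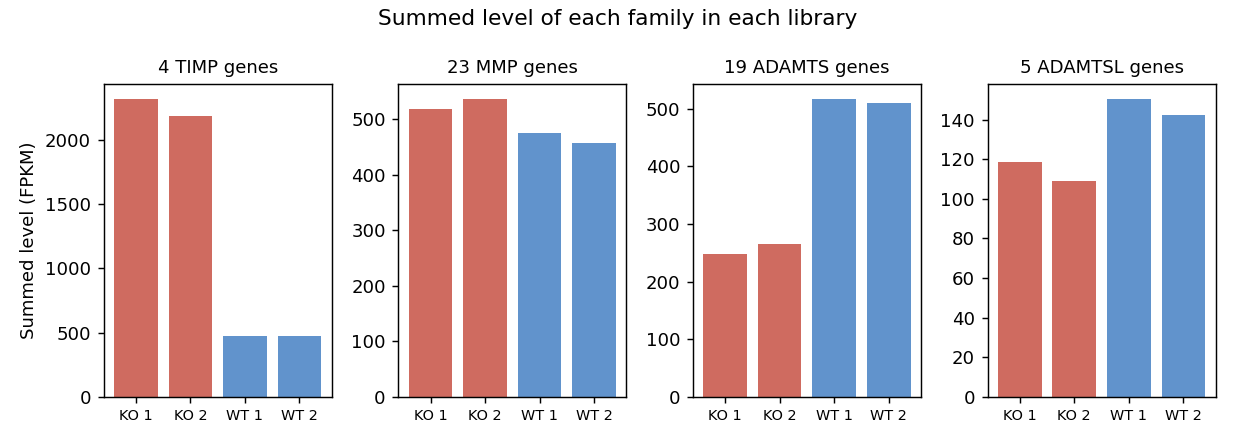
Summed level (y axis, FPKM, each panel on its own scale from 0) of all genes of each family in each library. TIMP bars are at 2319 and 2180 FPKM in KO and at 476 and 472 FPKM in WT, MMP bars are close, and ADAMTS bars are at 249 and 266 FPKM in KO and at 518 and 510 FPKM in WT.

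The bars of summed levels also hide a change of makeup. Mmp14 made up 51.7% and 47.4% of the summed MMP level in KO libraries, against 21.2% and 20.8% in WT libraries. Mmp17 made up 3.72% and 3.64% in KO, against 20.4% and 21.0% in WT, and Mmp23 13.9% and 14.8% in KO, against 31.5% and 29.0% in WT. In the ADAMTS family the leading gene kept a like share, with Adamts10 at 43.9% and 37.8% in KO and 43.8% and 43.4% in WT. The summed TIMP level was 4.47 and 4.06 times the summed MMP level in KO libraries, against 1.003 and 1.031 times in WT libraries. These are transcript levels, enzyme activity was not measured, and the sums do not weigh which TIMP blocks which enzyme.

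Other listed genes, not all of which act on these proteases, moved in either direction. In a list of 82 partners, substrates and inducers, 61 were tested, of which 23 rose (37.7%), 22 fell (36.1%) and 16 were not called. These shares lie near the 35.2% higher and 30.5% lower of all genes tested, and the counts of the single lists below are given as descriptions. Without KO library 2 the count that rose was 14. Of the genes named from these lists, Fosl1, Etv4, Runx1, Adam12 and Adam8 passed the filter through the KO libraries alone and Spock2 through the WT libraries alone. Of 6 tested genes listed under protease inhibitors and clearance, not all of them for MMP inhibitors, 3 fell. Reck, a membrane-anchored MMP inhibitor, was at 11.9 and 13.1 FPKM in KO libraries, against 26.1 and 25.9 FPKM in WT libraries (log2 fold change -1.002, limma adjusted p = 3.23e-06). Spock2, a testican, was at 0.89 and 0.92 FPKM in KO, against 4.68 and 4.79 FPKM in WT, and the cysteine protease inhibitor Cst3 at 1658 and 1804 FPKM in KO, against 2187 and 2477 FPKM in WT.

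Of 11 tested activating proteases and cell-surface partners, 5 rose and 3 fell. Plaur, the urokinase receptor, was at 90.1 and 77.3 FPKM in KO libraries, against 9.62 and 9.66 FPKM in WT libraries, and Plau, urokinase itself, at 10.1 and 9.72 FPKM in KO, against 2.02 and 1.74 FPKM in WT. Cd44, a hyaluronan receptor that holds MMPs at the cell surface, was at 40.4 and 42.6 FPKM in KO, against 7.72 and 8.65 FPKM in WT. Pcsk6, a proprotein convertase, was lower, at 0.97 and 1.56 FPKM in KO, against 5.82 and 4.68 FPKM in WT. Each of these 4 was called, with limma adjusted p between 1.05e-10 for Plaur and 1.47e-06 for Pcsk6.

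Of 16 tested substrates, 5 rose and 7 fell. Vcan, the versican core protein, was at 16.9 and 20.3 FPKM in KO libraries, against 37.9 and 37.4 FPKM in WT libraries, and fell. Vwf was at 9.22 and 10.2 FPKM in KO, against 29.6 and 26.9 FPKM in WT. Fn1, fibronectin, was at 969 and 1118 FPKM in KO, against 293.2 and 347 FPKM in WT, and Lum, lumican, at 83.6 and 82.4 FPKM in KO, against 46.4 and 41.8 FPKM in WT. All 4 were called, with limma adjusted p at most 5.44e-06.

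The related ADAM proteases rose in 4 and fell in 4 of 9 tested cases. Adam12 was at 7.34 and 7.60 FPKM in KO libraries, against 0.13 and 0.18 FPKM in WT libraries, and Adam8, known from leukocytes, at 4.21 and 3.80 FPKM in KO, against 0.54 and 0.54 FPKM in WT. Adam11 was at 3.81 and 4.04 FPKM in KO, against 33.3 and 36.5 FPKM in WT, and Adam33, known from smooth muscle, at 13.3 and 12.9 FPKM in KO, against 70.6 and 60.8 FPKM in WT. Thsd4, an ADAMTS-like protein that aids fibrillin microfibril assembly, was at 15.3 and 20.4 FPKM in KO libraries, against 93.6 and 94.5 FPKM in WT libraries, and fell by 2.35 on the log2 scale (limma adjusted p = 3.15e-09). Its level was near that of Adamtsl5, the highest of the numbered ADAMTS-like genes, in WT library 1 (93.6 against 93.4 FPKM). It was above Adamtsl5 in WT library 2 (94.5 against 85.2 FPKM).

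Among known inducers of MMP and TIMP transcription, 8 rose and 4 fell of 18 tested. Fosl1, an AP-1 subunit, was at 13.4 and 11.3 FPKM in KO libraries, against 0.020 and 0.10 FPKM in WT libraries (log2 fold change 3.65, limma adjusted p = 6.33e-11). Junb, another AP-1 subunit, was at 102 and 118 FPKM in KO, against 29.3 and 24.5 FPKM in WT. Etv4, an ETS factor, was at 8.28 and 6.65 FPKM in KO, against 0.13 and 0.25 FPKM in WT, and Runx1 at 4.34 and 4.73 FPKM in KO, against 0.20 and 0.20 FPKM in WT. The AP-1 genes did not move as a block, since Fos, Fosb, Jun and Jund were the 4 that fell. Fos was at 4.55 and 8.05 FPKM in KO, against 12.8 and 11.5 FPKM in WT.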

How the data were processed

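The deposited values are FPKM, 1 file per library, made by the authors, and the unit is misspelt per the file headers. Tools and build are credited to the submitters' processing notes, which list build mm10, DESeq2 1.16.1, featureCounts 1.5.0-p3 and HISAT2 2.0.5 and do not state their roles. Of 24346 rows per file, 27 with date-like or repeated symbols were left out. Low values showed no common step (the most frequent ratio between libraries of a genotype covered at most 0.321% of genes), so depth is unknown and no count model was used. A gene was tested where 2 or more libraries reached 1 FPKM. The test was limma 3.58.1 in R 4.3.3 on log2(FPKM + 1), with the variance prior following mean level, KO minus WT, two-sided, with Benjamini-Hochberg adjustment. Fold values are ratios of mean FPKM. The procedure was tested on simulated data with the spread of the WT libraries and few changed genes, unlike the 65.7% called here. That test does not show that the calls here are valid. Libraries were grouped by genotype label and their numbers pair nothing. Nothing says that libraries came from separate animals, so the p-values reflect differences among these 4 libraries, which may be technical. Pooling over genes gave 13.3 degrees of freedom, 2 of them from the gene itself. Alternatives were pseudocounts of 0.1 and 5, no filter or 5 FPKM, equal column totals, quantile normalization, length and GC trends removed, no intensity trend, robust estimation and leaving out each library. The family members and lists were chosen with earlier results of these data known. Every tested member was named, and of each partner list up to 4 called genes by smallest p. One gene that this rule names is not reported here. Comp, Cd68, Adgre1, Fos, Fosb, Jun and Jund, genes overlapping members, and the Timp1 variant motif were added after the data were seen. Coordinates are from GENCODE M21 and promoters from RefSeq, with windows for 36 of 51 members.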

Additional observations from a re-analysis of the deposited data

How the results depend on the processing

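Counts of all genes called and of members called lower stayed within 1.5 times of the reported values in all 13 alternatives, with members called lower between 14 and 22. Members called higher were 7, and 4 with equal column totals and 3 to 5 with a library left out. Without KO library 1 or 2, Mmp12 and Adamts7 no longer reached the filter. Without WT library 1 or 2, Mmp9 and Adamtsl1, both called lower, no longer reached it. Partner genes called higher were 23, and 14 to 21 with a library left out (14 without KO library 2). The median log2 fold change of the tested members, -0.707, was -0.313 with a pseudocount of 5, -0.182 with no filter (45 members), -0.974 with equal column totals and -0.454 with length and GC trends removed. Summed levels in KO over WT with equal column totals were 3.95 for TIMP genes, 0.943 for MMP genes, a reversal, and 0.416 for ADAMTS genes. Of 397 single-gene comparisons, 29 lost a call (3 of them with a change of sign), 5 gained one and 12 changed sign. The pseudocounts moved 15 of the 32 tested members by over 1.5 times. The sign changes were, with equal column totals, Adamts12 (-0.105), Adamtsl5 (-0.246), Mmp3 (-0.0643) and Timp2 (-0.0312). With quantile normalization they were Adamtsl5 (-0.166) and Timp2 (-0.0983), and with length and GC trends removed Adamts5 (0.0231), Adamtsl3 (0.114) and Mmp3 (-0.134). With a library left out, Adamtsl5 ranged between -0.0669 and 0.0988 (-0.0494 without WT library 2, -0.0669 without KO library 1) and Mmp16 between -0.395 and 0.0652 (0.0652 without KO library 1). The causes were not tested. No paired analysis was possible because library numbers are names given in order and pair no samples.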
